A study of Mus musculus with 3 samples.

Results

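Genes that mark the lineage of migrating interneuron precursors in the mouse forebrain are described here: the homeobox genes Dlx1, Dlx2 and Dlx5, the long noncoding RNA Dlx6os1, the zinc finger genes Sp8 and Sp9, the neuroblast gene Dcx, the transcription factor gene Sox11 and the GABA enzyme gene Gad1. They were chosen by name as genes of this lineage, by symbol in the deposited gene lists, and all 9 were found among the 32285 genes listed. The study measured RNA in single cells of the brain after a transient ischemic attack (TIA), modelled by a short block of the middle cerebral artery with a filament. Live cells were sorted from the ipsilateral hemisphere of male wild-type (WT) C57BL6J mice after the white matter and the meninges had been taken off, and their RNA was counted with the 10x Genomics droplet method. The groups were naive control mice, mice 24 h post stroke and mice 3 d post stroke, with 1 library from 3 pooled mice in each group. No group had a repeated library, so no test between groups was possible and every interval below covers counting error only, at the 95% level.

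New neurons form in the adult forebrain beside the lateral ventricle, where dividing progenitors give rise to neuroblasts that migrate mainly to the olfactory bulb. Dlx transcription factors switch on in the progenitors and help start the program of inhibitory neurons, which make the transmitter GABA. Neuroblasts carry the microtubule protein doublecortin (Dcx) while they move, and most of them lose it as they mature.

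The naive, 24 h and 3 d libraries held 4804, 1619 and 5505 barcodes with 37987228, 12919691 and 48636436 unique molecular identifiers (UMIs, tags that count each captured RNA molecule once). Cells with at least 500 detected genes and at most 7% of UMIs from mitochondrial genes were kept, which left 4018, 1225 and 4781 cells with median depths of 7750, 8123 and 7868 UMIs. The naive and 24 h libraries shared 2 kept barcodes, the naive and 3 d libraries 7 and the TIA libraries 2. Cell pairs in one droplet (doublets) called by Scrublet numbered 119, 7 and 142 and were kept, with values without them computed as an alternative.

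Cells were clustered without the 9 genes, so that none of them decided which cells were grouped. One cluster passed for 11 of 11 neuroblast markers, led by the interneuron gene Adarb2 together with Nxph1 and Myt1l, and is called neuroblast-like. Another was led by the division genes Top2a, Pclaf and Mki67, passed for all 8 progenitor markers and also for 11 of 11 neuroblast markers, and is called progenitor-like. The neuroblast-like class had 766, 110 and 364 cells in the naive, 24 h and 3 d libraries, or 19.1% (17.9% to 20.3%), 8.98% (7.44% to 10.7%) and 7.61% (6.88% to 8.40%) of the kept cells. The naive share was the highest, and its interval did not meet that of either TIA library, while the TIA intervals overlapped. The progenitor-like class had 197, 39 and 185 cells, or 4.90% (4.26% to 5.62%), 3.18% (2.27% to 4.33%) and 3.87% (3.34% to 4.46%), and here all intervals overlapped. The classes differed in depth, with medians of 6977, 8508 and 8224 UMIs in neuroblast-like and 16113, 20437 and 18853 in progenitor-like cells.

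Part of the higher naive share lay in shallow cells. Of the kept cells under 5000 UMIs, 26.3, 9.79 and 5.87% were neuroblast-like in the naive, 24 h and 3 d libraries, a limit chosen after seeing the data. Of those with at least 5000 UMIs, 16.3% (15.0% to 17.7%), 8.73% (7.01% to 10.7%) and 8.16% (7.29% to 9.10%) were. The naive share was thus the highest among shallow and deeper cells alike. The dissection, the sort for live cells and the depth of each library can all set such shares, and their part was not tested.

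The 9 genes were found mostly in the lineage, meaning progenitor-like and neuroblast-like cells together. These cells held 95.4%, 97.9% and 96.3% of all UMIs of the genes in the naive, 24 h and 3 d libraries, which were 48448, 9510 and 34684 UMIs of 50759, 9715 and 36028. Levels below are UMIs per 1000000 UMIs of the same cells (CPM), and since they were not scaled by gene length they are compared within a gene and not between genes. Both classes had each of the genes in every library.

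The order of expression was read from dividing cells to late neuroblasts, along stages that used none of the 9 genes. Each lineage cell was thinned to 2000 UMIs by a random draw, so that depth did not set its stage. Cells with at least 3 UMIs of 22 division genes after thinning were called dividing, and the others were cut into equal parts (early, middle and late) by the share of their UMIs from 18 genes of maturing neurons. Of 1661 lineage cells, 1570 had enough UMIs, which gave 279 dividing, 431 early, 430 middle and 430 late cells, with median depths of 18552, 9952, 7928.5 and 7448.5 UMIs. The stages are ranges and not cell types. Near the limits lay 45 cells with 2 and 19 with 3 division UMIs, and 162 cells within 0.1 percentage points of a limit between early, middle and late.

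The early stage was mixed. It held 141 progenitor-like and 290 neuroblast-like cells, and 58 of its cells (13.5%) had no UMI of Dlx1, Dlx2, Dlx5 or Dlx6os1, against 6.81% of dividing, 0.465% of middle and 0.698% of late cells. At least 3 UMIs from genes of the excitatory lineage were seen in 51 early cells, and 31 of these had no Dlx UMI. The medians over cells of UMIs from microglia markers were 3, 2, 1 and 1 in the dividing, early, middle and late stages, those from astrocyte markers 7, 4, 2 and 3, and those from oligodendrocyte markers 2, 1, 1 and 1.

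Gad1, Dlx6os1, Dcx and Sp8 were at least 2-fold higher in late than in dividing cells, while over all libraries Dlx1, Dlx2 and Sox11 were already near their late level in dividing cells or above it. Over all libraries, 4 of the 9 genes were at least 2-fold higher and 0 at least 2-fold lower in late cells. Among 12022 genes with at least 30 UMIs in both stages together, 10.4% were higher and 20% lower by that much, with a median log2 difference of -0.15. The count was 4 in the naive, 5 in the 24 h and 4 in the 3 d library. The 24 h dividing stage rests on only 17 cells, where the naive and 3 d libraries had 139 and 123, and the gene added to the 24 h count was Sp9.

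**Figure D1:**
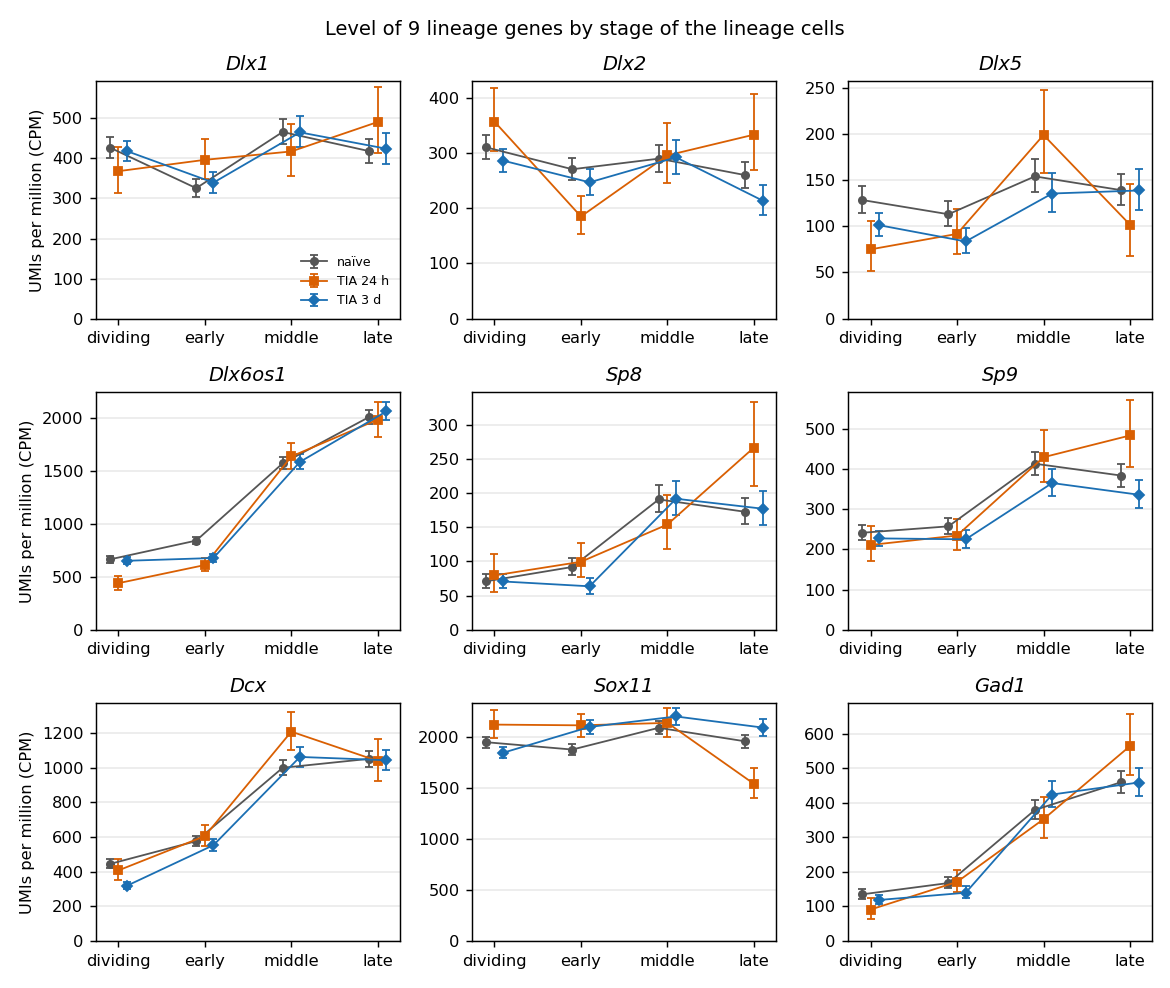
Level in CPM (vertical axis, from 0) of each of the 9 genes in dividing, early, middle and late lineage cells, for the naive (circles), TIA 24 h (squares) and TIA 3 d (diamonds) libraries, with exact Poisson 95% intervals. Gad1, Dlx6os1, Dcx and Sp8 are higher in late than in dividing cells in each library, while Dlx1, Dlx2 and Sox11 are already high in dividing cells.

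Dlx1 and Dlx2, neighbouring homeobox genes that act first in this lineage, were close to their later levels while the cells divided. Dlx1 stood at 418 (401 to 436), 339.7 (324 to 356), 460.0 (438 to 483) and 426 (404 to 449) CPM in dividing, early, middle and late cells, with exact Poisson intervals in parentheses. Its late level differed from the dividing level by 0.028 (-0.069 to 0.12) on the log2 scale, where the range is an exact conditional binomial interval, and by -0.031 in the naive, 0.42 in the 24 h and 0.021 in the 3 d library. Over all libraries Dlx1 thus ended where it began, with its lowest level in the mixed early stage. In the 24 h library it went up instead, through 368, 396, 417 and 491 CPM, with an interval of the difference above 0 (0.079 to 0.75). Dlx2 stood at 303 (288 to 318), 251 (237 to 265), 291 (274 to 309) and 251 (234 to 268) CPM, and its log2 difference of -0.27 (-0.40 to -0.15) was below 0, as it was in each library with -0.26 in the naive, -0.10 in the 24 h and -0.42 in the 3 d library. The 24 h interval, -0.48 to 0.28, held 0. Dlx2 was the gene of the list with the lowest late level against its dividing level over all libraries. Between neuroblast-like and progenitor-like clusters in place of these stages, the log2 difference of Dlx2 was 0.015. The direction for Dlx2 thus depended on how the cells were grouped. Dlx5, a homeobox gene that follows Dlx1 and Dlx2 in known order, stood at 111 (103 to 121), 99.5 (91.0 to 109), 153 (140.0 to 166) and 136 (123 to 149) CPM with a log2 difference of 0.28 (0.10 to 0.46). Over all libraries it was a little higher in late than in dividing cells and highest in the middle stage. By library the difference was 0.11 (-0.13 to 0.35) in the naive, 0.44 (-0.33 to 1.20) in the 24 h and 0.46 (0.16 to 0.75) in the 3 d library, so only the last had an interval above 0, and there the late level was near the middle one.

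Sox11, a transcription factor gene of immature neurons, was also high from the start, at 1917 (1880.3 to 1954), 1991 (1952 to 2029.9), 2136 (2089 to 2185) and 1969.6 (1922 to 2018) CPM. Its log2 difference between late and dividing cells was 0.039 (-0.0057 to 0.084) over all libraries and 0.0062 in the naive, -0.46 in the 24 h and 0.18 in the 3 d library. The 24 h library alone had a lower late level, 1543 CPM (1402 to 1694) in 30 cells, below the naive 1959.7 CPM (1897 to 2024).

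The zinc finger genes Sp8 and Sp9, which guide the differentiation of interneurons, were higher in middle and late cells than in dividing and early ones. Sp9 stood at 233 (220.0 to 246), 243 (229 to 257), 399 (378 to 420.1) and 376 (356 to 398) CPM in dividing, early, middle and late cells, a log2 difference of 0.69 (0.58 to 0.81) between late and dividing cells. Sp8 stood at 71.4 (64.5 to 78.9), 82.5 (74.7 to 90.8), 187 (173 to 202) and 182 (168 to 197) CPM, a difference of 1.35 (1.17 to 1.54). Over all libraries both had a higher level in middle and late cells, with the larger step in Sp8. From dividing to early cells Sp9 differed by 0.062 (-0.052 to 0.18) and Sp8 by 0.21 (0.0043 to 0.41) on the log2 scale, so the interval of Sp8 lay just above 0. By library this step of Sp8 was 0.37 (0.087 to 0.66) in the naive and 0.32 (-0.29 to 0.96) in the 24 h library. In the 3 d library it was -0.15 (-0.50 to 0.19), so only the naive interval lay above 0. In the 24 h library Sp8 also rose from 154 (118 to 197) CPM in middle to 266 (209.9 to 334) CPM in late cells. The difference of Sp9 was 0.67 in the naive, 1.20 in the 24 h and 0.56 in the 3 d library, and that of Sp8 was 1.28 in the naive, 1.74 in the 24 h and 1.33 in the 3 d library.

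Dcx, whose protein binds microtubules in migrating neuroblasts, was present in dividing cells and went up at each step to the middle stage. It stood at 382 (366 to 399), 571 (550.0 to 592), 1044 (1010.4 to 1078) and 1046 (1012 to 1082) CPM, a log2 difference of 1.45 (1.37 to 1.53) over all libraries and 1.24 in the naive, 1.35 in the 24 h and 1.71 in the 3 d library. The middle and late levels had overlapping intervals, so its climb ended in the middle stage.

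Dlx6os1, the long noncoding RNA next to Dlx5 and across from Dlx6, and Gad1, which makes GABA from glutamate, climbed to the last stage. Dlx6os1 stood at 641 (620.3 to 663), 754 (730.0 to 778), 1586 (1545 to 1628) and 2028 (1979.9 to 2078) CPM, with a log2 difference of 1.66 (1.60 to 1.72) over all libraries and 1.60 in the naive, 2.17 in the 24 h and 1.66 in the 3 d library. Gad1 stood at 124 (115 to 133), 158 (147 to 169), 392 (371 to 413) and 469 (446 to 493) CPM, with 1.92 (1.79 to 2.05) over all libraries and 1.77 in the naive, 2.64 in the 24 h and 1.95 in the 3 d library. In both genes the late interval lay above the middle one over all libraries, though for Gad1 they overlapped in the 3 d library, and Gad1 ranked first for this difference in each library. In order of the difference over all libraries, Gad1 was followed by Dlx6os1, Dcx, Sp8, Sp9, Dlx5, Sox11, Dlx1 and Dlx2. Over the 3 libraries the values of Gad1, Dlx6os1, Dcx and Sp8 overlapped from each to the next in that order, those of Sp9 lay below all of them and above those of Dlx5, those of Dlx5, Sox11 and Dlx1 overlapped, and so did those of Sox11 and Dlx2.

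Inside the early stage the cells of the progenitor-like and neuroblast-like clusters stood apart for most of the genes. Gad1 was at 25.8 (19.7 to 33.0) CPM in the 141 progenitor-like and 278 (258 to 298) CPM in the 290 neuroblast-like early cells, and Sp8 was at 17.9 (12.9 to 24.1) and 141 (127 to 156) CPM. Dlx1 differed less, with 303 (281 to 326) and 373 (350.2 to 397) CPM, and Sox11 was higher in the progenitor-like early cells, with 2202 (2143 to 2262) against 1799 (1748 to 1851) CPM. Sp9 was at 99.7 (87.5 to 113) and 373 (349.8 to 397) CPM, Dcx at 349.8 (327 to 374) and 771 (738 to 805) CPM and Dlx6os1 at 302 (280.1 to 324) and 1164 (1123 to 1206) CPM. The levels of the early stage are therefore a blend of these clusters, and progenitor-like cells fell from 141 of its 431 cells to 8 of 430 in the middle stage. In neuroblast-like early cells the Sp9 interval met that of the middle stage, while Sp8, Dcx, Dlx6os1 and Gad1 were still below their middle levels.

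Shares of cells with a UMI were also compared between stages. In cells thinned to 2000 UMIs, Gad1 was seen in 19.0%, 30.2%, 55.1% and 55.3% of dividing, early, middle and late cells, and in 53.8%, 62.2%, 87.7% and 87.7% before thinning. Dcx was seen in 50.2%, 61.7%, 80.9% and 84.4% after thinning and 87.8%, 87.9%, 96.0% and 95.1% before it, and Dlx1 in 56.3%, 44.1%, 56.3% and 50.7% and 90.3%, 74.5%, 86.3% and 77.0%. The thinned shares of Gad1 and Dcx were higher in middle and late than in dividing cells, and that of Dlx1 was not. From middle to late the Gad1 share was flat, where its level rose. In microglia-like cells, a class that should lack these genes, thinning left 1000, 274 and 1235 cells in the naive, 24 h and 3 d libraries. Of these, 3, 0 and 2 had a Gad1 UMI, 17, 0 and 9 a Dcx UMI and 15, 0 and 5 a Dlx1 UMI. A count of 0 allows up to 1.34% of cells with a UMI at this thinned depth. It does not limit the share of cells that hold the RNA. The median depth of these microglia-like cells was 7837, 9381 and 7736 UMIs before thinning.

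Most neuroblast-like cells carried several of the genes at once. Their median was 8 of 9 genes with a UMI, and 344 of 1240 cells (27.7%) had all of them. Of 1166 neuroblast-like cells with a Dcx UMI, 1155 (99.1%) also had a UMI of Dlx1, Dlx2, Dlx5 or Dlx6os1, and the 11 others were shallow, with a median of 1593 UMIs. In the progenitor-like class, 306 of 342 Dcx cells (89.5%) had such a UMI, and the 36 others had median depths of 13401.5, 17465.5 and 16314 UMIs in the naive, 24 h and 3 d libraries. These medians were below the 16113, 20437 and 18853 UMIs of the whole class. In neuroblast-like cells, 88.1% of the 666 cells with Sp8 also had Sp9, and 58.9% of the 997 cells with Sp9 also had Sp8.

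Whether the genes changed after TIA was read from summed UMIs of a class in each TIA library against the naive library, and both comparisons share that naive library. Inside neuroblast-like cells none of the 9 genes reached a 2-fold difference at 24 h or at 3 d. At 24 h, 0 were higher and 0 lower by that much, where of 11271 genes with at least 30 UMIs 1.06% were higher and 9.87% lower. At 3 d, 0 were higher and 0 lower, against 0.486% and 2.15% of 11945 genes. The median log2 ratio of the 9 genes was 0.20 at 24 h and 0.044 at 3 d, and that of all genes was -0.042 and 0.023.

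Among the Dlx genes, Dlx1 stood at 411 (394 to 429), 433 (393 to 477) and 441 (418 to 465) CPM in neuroblast-like cells of the naive, 24 h and 3 d libraries, with log2 ratios of 0.075 (-0.079 to 0.23) at 24 h and 0.10 (0.0039 to 0.20) at 3 d. Dlx2 stood at 274 (260.0 to 288), 293 (259.7 to 329) and 273 (255 to 292) CPM, with log2 ratios of 0.10 (-0.091 to 0.28) and -0.0023 (-0.13 to 0.12). The intervals of their levels overlapped between all libraries, and that of the Dlx1 ratio at 3 d lay just above 0. Dlx5 stood at 143 (133 to 153), 167 (142 to 195) and 131 (118 to 144) CPM, with log2 ratios of 0.23 (-0.026 to 0.47) and -0.13 (-0.30 to 0.045), and Dlx6os1 at 1597 (1564 to 1631), 1660.0 (1579.6 to 1743) and 1647 (1603 to 1693) CPM, with 0.056 (-0.022 to 0.13) and 0.044 (-0.0054 to 0.094). Dlx5 was highest at 24 h and lowest at 3 d, and the 3 d level against the 24 h level gave a log2 ratio of -0.36 (-0.62 to -0.085).

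Sp8, Sp9, Dcx and Gad1 were higher at 24 h than in naive neuroblast-like cells, each by much less than 2-fold and by an amount that depended on the settings. At 24 h the interval lay above 0 for 4 of the 9 genes and below it for 0, against 7.37% and 9.88% of all genes. At 3 d it was 3 and 0, against 9.44% and 7.59%. These shares are not matched for level. Sp8 stood at 168 (158 to 179.7), 211 (183 to 242) and 170.2 (156 to 185) CPM, with log2 ratios of 0.32 (0.10 to 0.54) at 24 h and 0.014 (-0.14 to 0.17) at 3 d, and Sp9 at 383 (366 to 399), 459 (417 to 504) and 362 (342 to 384) CPM, with 0.26 (0.11 to 0.41) and -0.078 (-0.18 to 0.026). At 3 d both had a level whose interval overlapped the naive one, with 3 d against 24 h at -0.31 (-0.55 to -0.069) for Sp8 and -0.34 (-0.50 to -0.18) for Sp9. Dcx stood at 938 (912 to 964), 1094 (1029 to 1162) and 994 (959 to 1029) CPM, with log2 ratios of 0.22 (0.13 to 0.32) and 0.084 (0.019 to 0.15), and Gad1 at 375 (359 to 392), 432 (392 to 476) and 402 (379.7 to 424) CPM, with 0.20 (0.048 to 0.36) and 0.10 (-0.0045 to 0.20). Under the other settings run, the 24 h ratio went as low as 0.092 for Dcx, 0.068 for Gad1, 0.21 for Sp8 and 0.15 for Sp9. Sox11 had its highest level at 3 d, with 1934 (1898 to 1972), 1916 (1829 to 2005) and 2084 (2034 to 2136) CPM and log2 ratios of -0.014 (-0.086 to 0.057) and 0.11 (0.063 to 0.15). In cells with at least 5000 UMIs, a limit chosen after seeing the data, its 3 d ratio was only 0.052.

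Counted as raw UMIs per cell, which go with depth, a neuroblast-like cell held on average 13.8, 16.8 and 17.9 Sox11, 11.4, 14.5 and 14.2 Dlx6os1 and 6.71, 9.57 and 8.55 Dcx UMIs in the naive, 24 h and 3 d libraries, with medians of 10, 14 and 16, 8, 11 and 12 and 6, 9 and 8. The averages were 2.94, 3.79 and 3.80 for Dlx1, 2.74, 4.02 and 3.12 for Sp9 and 2.69, 3.78 and 3.46 for Gad1. Those of Dlx2 were 1.96, 2.56 and 2.35, those of Dlx5 1.02, 1.46 and 1.12 and those of Sp8 1.21, 1.85 and 1.46. All of these averages were lowest in the naive library, which also had the lowest median depth in this class.

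Depth and RNA of astrocyte markers also differed between the neuroblast-like cells of the libraries. In naive neuroblast-like cells under 5000 UMIs, Sox11 was at 1144 CPM and Dlx1 at 249 CPM, below 2069 and 439 CPM in deeper cells, while Gad1 was higher in the shallow cells with 465 against 359.9 CPM. The naive library had 290 such shallow cells, the 24 h library 28 and the 3 d library 67. Astrocyte markers summed to 1206, 305 and 919.8 CPM in neuroblast-like cells of the naive, 24 h and 3 d libraries, led by Slc1a2 in the naive and 3 d libraries and by Slc4a4 at 24 h, where Aqp4 had 0 UMIs. The 24 h library was thus the lowest in RNA of astrocyte markers, and the part of this and of depth in the ratios was not tested.

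In progenitor-like cells several of the genes had a lower level at 24 h, when the mix of cells in this class also differed. At 24 h, 1 of the 9, Dlx5, was at least 2-fold lower and 0 were higher by that much, against 3.76% lower and 3.51% higher of 10670 genes. At 3 d, 0 were lower and 0 higher, against 1.45% and 1.83% of 11822 genes. The median log2 ratio was -0.33 at 24 h and -0.087 at 3 d, and that of all genes was 0.024 and 0.049. At 24 h the interval lay below 0 for 5 of the 9 and above it for 1, where it did so for 8.22% and 10.4% of all genes. At 3 d it lay below 0 for 3 and above it for 0, against 8.89% and 13.1%. Genes with more UMIs have narrower intervals, so these shares are not matched for level.

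Dlx5 stood at 113 (102 to 125), 52.1 (37.7 to 70.2) and 89.9 (80.4 to 100.2) CPM in progenitor-like cells of the naive, 24 h and 3 d libraries, with log2 ratios of -1.12 (-1.61 to -0.66) at 24 h and -0.33 (-0.55 to -0.12) at 3 d. Its 24 h value rests on 43 UMIs in 39 cells. Dlx6os1 stood at 577 (552 to 603), 304 (268 to 344) and 563 (539 to 588) CPM, with -0.92 (-1.12 to -0.73) and -0.034 (-0.12 to 0.055), and Gad1 at 103 (92.6 to 114), 58.2 (42.9 to 77.1) and 94.3 (84.6 to 105) CPM, with -0.82 (-1.29 to -0.39) and -0.13 (-0.35 to 0.089). The 24 h level was the lowest for all of these genes, with an interval below that of the other libraries. Few cells carried it for Dlx6os1 and Gad1, since the 5 highest of the 39 cells held 65.7% of the Dlx6os1 and 66.7% of the Gad1 UMIs. Sox11 stood at 1979.7 (1933 to 2027), 2140.2 (2042 to 2242) and 1964 (1919 to 2010.0) CPM, with 0.11 (0.036 to 0.19) and -0.011 (-0.059 to 0.036), the only gene of the list whose interval lay above 0 at 24 h in this class. The mix of stages in this class differed, with 131, 17 and 119 of its cells in the dividing stage in the naive, 24 h and 3 d libraries, or 66.5, 43.6 and 64.3%. Cells with a UMI of Dlx1, Dlx2, Dlx5 or Dlx6os1 were 84.3, 69.2 and 81.1% of the progenitor-like cells. Among early cells, 10.1, 26 and 14.6% had none, and 9, 8 and 14 of these cells had at least 3 UMIs from genes of the excitatory lineage. In the dividing stage the shares without a Dlx UMI were 4.32, 0 and 10.6%. The 24 h library thus had the highest share of cells without a Dlx UMI in the early stage. It had the lowest in the dividing stage, but from only 17 cells.

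Dividing cells alone were compared as well, a choice made after seeing the data and without shares of all genes to set beside the values. The 24 h log2 ratios there were -0.78 (-1.34 to -0.26) for Dlx5, -0.59 (-0.82 to -0.38) for Dlx6os1 and -0.57 (-1.08 to -0.094) for Gad1, from 17 cells. These were nearer 0 than in the whole class, with intervals still below 0. Dlx2 had 0.20 (-0.056 to 0.45) and Sp9 -0.19 (-0.52 to 0.12), and Sox11 0.12 (0.020 to 0.22). At 3 d Dcx had -0.48 (-0.61 to -0.35), Dlx5 -0.35 (-0.59 to -0.10) and Sox11 -0.079 (-0.14 to -0.021), the genes with an interval below 0 in dividing cells at that time.

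Summed over every kept cell of a library, RNA of the 9 genes was lower after TIA, while within lineage cells the sum was nearly level. All kept cells had 1449, 823 and 779 CPM of the genes together in the naive, 24 h and 3 d libraries, with log2 ratios of -0.82 (-0.85 to -0.78) at 24 h and -0.90 (-0.92 to -0.88) at 3 d. Lineage cells alone had 5408, 5319 and 5114 CPM, with -0.024 (-0.056 to 0.0080) and -0.080 (-0.10 to -0.060). The lower sum thus came with a lower share of lineage cells among the kept cells. By gene, ratios in lineage cells ran from -0.22 (-0.29 to -0.14) for Dlx6os1 to 0.10 (-0.10 to 0.31) for Sp8 at 24 h. At 3 d they ran from -0.27 (-0.41 to -0.14) for Dlx5 to 0.049 (0.0167 to 0.0815) for Sox11. Intervals at 3 d lay below 0 for Dlx2, Dlx5, Dlx6os1, Sp8, Sp9, Dcx and Gad1, held 0 for Dlx1 and lay above 0 for Sox11. Progenitor-like cells held 3475259 of 8959070 lineage UMIs in the naive, 825167 of 1787807 in the 24 h and 3649271 of 6781630 in the 3 d library. Inside neuroblast-like cells 0 intervals lay below 0 at 3 d and 3 above it, and inside progenitor-like cells 3 below and 0 above. The part of this mix was not tested, and no shares of all genes stand beside the lineage ratios.

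Outside the lineage RNA of the genes was scarce in the named classes, and lower after TIA. All kept cells outside the lineage had 88.7, 20.5 and 34.0 CPM of the 9 genes together in the naive, 24 h and 3 d libraries, with log2 ratios of -2.11 (-2.33 to -1.91) and -1.38 (-1.48 to -1.28). A cluster without a name, led by Ttr, Ccn3 and Prg4, held 635, 25 and 199 of the 2311, 205 and 1344 UMIs behind these sums, in 96, 23 and 99 cells, and stood at 918, 131 and 216 CPM, with Sox11 alone at 454, 110.3 and 124 CPM. In the named classes outside the lineage, a choice made after seeing the data, the sums were 67.8, 19.2 and 32.9 CPM, with log2 ratios of -1.82 (-2.05 to -1.59) and -1.05 (-1.16 to -0.93). The fall was thus smaller without the unnamed clusters. Barcodes with under 500 genes, which were not kept, had 54.2, 49.9 and 43.0 CPM of the genes, from 69, 18 and 21 UMIs. These were 310, 203 and 163 barcodes with 1272377, 360568 and 488894 UMIs of all genes, and no mitochondrial limit was set on them. Their CPM is thus not matched to that of kept cells, nor a measure of free RNA alone. Their log2 ratios were -0.12 (-0.96 to 0.65) at 24 h and -0.34 (-1.12 to 0.39) at 3 d, so both intervals held 0. In droplet data, RNA free in the cell suspension gives every cell some UMIs of genes it does not express, and as background it keeps the genes of 1 source in 1 ratio in each class.

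Microglia-like cells had 44.4, 7.71 and 14.7 CPM of the genes together in the naive, 24 h and 3 d libraries, which was 0.713, 0.116 and 0.226% of the level in neuroblast-like cells. The log2 ratios of this sum were -2.52 (-3.22 to -1.90) at 24 h and -1.59 (-1.87 to -1.32) at 3 d. Sox11 stood at 14.2, 2.80 and 5.94 CPM, with log2 ratios of -2.34 (-3.58 to -1.31) and -1.26 (-1.72 to -0.80), and Dcx at 6.27, 1.75 and 1.98 CPM, with -1.84 (-3.52 to -0.53) and -1.66 (-2.47 to -0.91). Of the sum, the naive level was the highest and the 24 h level the lowest. The trace was spread over many microglia, since cells with at least 3 UMIs of the genes held 24.3, 0 and 5.77% of them.

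In microglia the split of UMIs over the genes differed in part from that in the lineage. In the naive library Dlx1 made up 12.8% (9.59% to 16.6%) of the UMIs of the 9 genes against 7.42% in lineage cells, and Dlx6os1 16.3% (12.7% to 20.4%) against 22.2%. Sp8 and Sp9 were above their lineage shares in the naive library, and Dlx6os1 was below it at 3 d as well, while the other genes and the 24 h library, with 22 UMIs, had intervals that overlapped those of the lineage. Markers of neuroblasts that are not among the 9 genes were also lower in microglia after TIA, with 96.9, 34.7 and 59.7 CPM over 11 genes, led by Elavl4, with Celsr3 and Dpysl3 at 0 UMIs at 24 h and Celsr3 at 0 UMIs at 3 d.

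Astrocyte-like cells had 69.1, 44.6 and 43.6 CPM of the genes together, which was 1.11, 0.670 and 0.671% of the level in neuroblast-like cells. The log2 ratios of this sum were -0.63 (-0.92 to -0.35) at 24 h and -0.66 (-0.83 to -0.50) at 3 d. Dcx stood at 5.28 (3.88 to 7.02), 0.703 (0.0851 to 2.54) and 1.63 (1.03 to 2.44) CPM, with log2 ratios of -2.91 (-6.00 to -0.98) and -1.70 (-2.49 to -0.95), and Gad1 had 41 UMIs in the naive library and 0 at 24 h, a log2 ratio of at most -2.13 against a floor of 3 UMIs.

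Sox11 in astrocytes was near its naive level at 24 h and lower at 3 d. It stood at 39.1 (35.1 to 43.4), 36.5 (29.9 to 44.3) and 29.3 (26.6 to 32.3) CPM in the naive, 24 h and 3 d libraries, with log2 ratios of -0.10 (-0.43 to 0.22) at 24 h and -0.41 (-0.62 to -0.20) at 3 d, and Dlx2, with -0.59 (-2.01 to 0.61) at 24 h, also had an interval that reached 0. Sox11 made up 56.6% (52.6% to 60.5%), 81.9% (74.1% to 88.2%) and 67.3% (63.4% to 71.0%) of the UMIs of the 9 genes in astrocytes, against 36.1%, 38.0% and 39.5% in lineage cells of the same libraries. Its share in astrocytes was above that of the lineage in each library, while those of Dlx6os1 and Dcx were below it in each. Sox11 UMIs were seen in 26.7%, 24.3% and 21.2% of astrocytes and 8.97%, 2.87% and 3.94% of microglia, at median depths of 9334, 11495 and 9307 and 7837, 9381 and 7736 UMIs. After thinning these shares were 7.12%, 7.52% and 4.46% and 2.10%, 0.730% and 1.13%. Sox11 in astrocytes thus departed from the split seen in the lineage, and whether astrocytes made the Sox11 RNA was not tested.

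**Figure D2:**
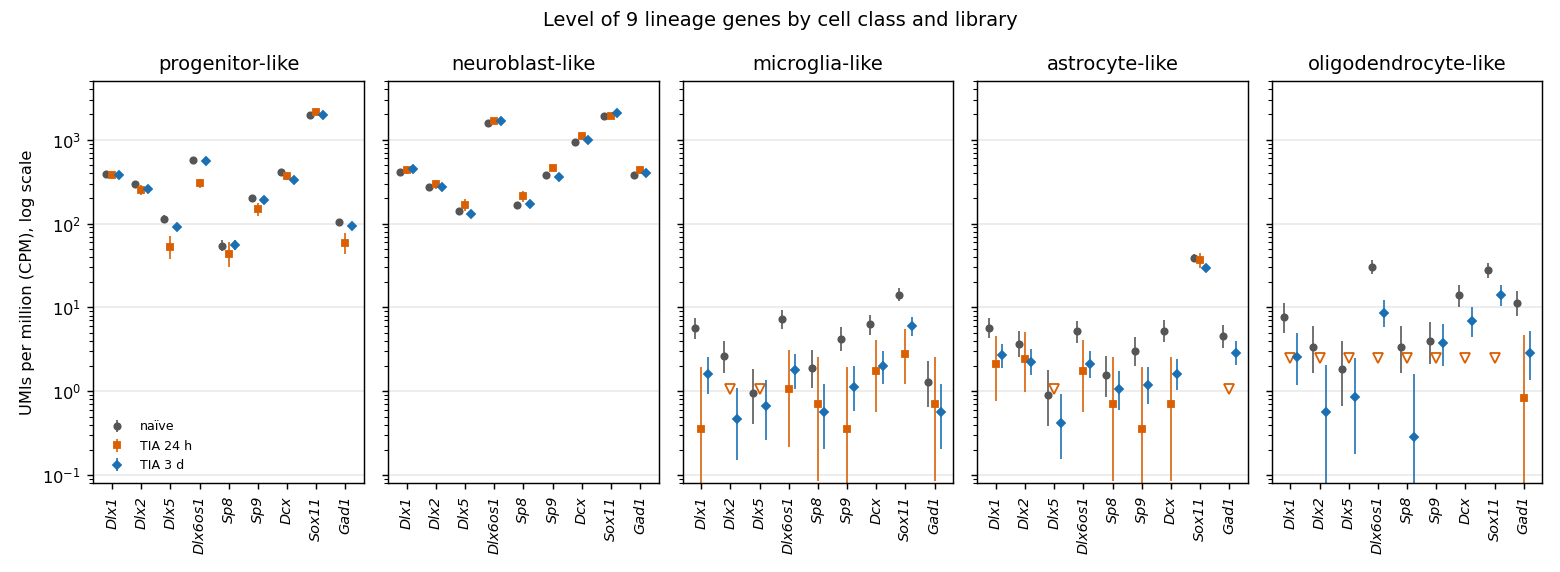
Level in CPM (vertical axis, log scale) of the 9 genes (horizontal axis) in progenitor-like, neuroblast-like, microglia-like, astrocyte-like and oligodendrocyte-like cells of the naive (circles), TIA 24 h (squares) and TIA 3 d (diamonds) libraries, with exact Poisson 95% intervals, where open triangles mark 0 UMIs, drawn at the level of 3 UMIs. For each gene, levels outside the lineage lie far below those in it, with Sox11 in astrocytes at 39.1, 36.5 and 29.3 CPM.

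In oligodendrocyte-like cells a few cells held most of the UMIs. The sum was 103, 0.832 and 40.5 CPM, from 340, 1 and 141 UMIs. Cells with at least 3 UMIs of the genes numbered 9, 0 and 2 and held 76.5, 0 and 77.3% of these UMIs. Without the 5 cells of each library with the most UMIs of neuroblast markers, an alternative chosen after seeing the data, the sum was 45.0, 0.924 and 9.19 CPM. For microglia the sum without such cells was 40.0, 7.83 and 14.7 CPM and for astrocytes 67.4, 40.9 and 42.7 CPM, so among these the oligodendrocyte values moved the most. Endothelial-like cells had 75.6, 9.36 and 46.4 CPM and pericyte-like cells 154, 14.8 and 18.8 CPM, in each case with the naive library highest and the 24 h library lowest. Without the same number of cells they had 58.0, 9.63 and 25.2 CPM and 66.5, 15.5 and 19.4 CPM, so the naive levels and the endothelial 3 d level rested in part on few cells.

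Genes that act with these in the lineage were described by lists, from dividing to late cells, and the counts stand beside 10.4% higher and 20% lower among all 12022 genes measured. Regulators of progenitors had 0 of 12 measured genes at least 2-fold higher and 10 lower in late cells, with a median log2 difference of -2.56. Egfr, a growth factor receptor of progenitors, stood at 293, 319, 27.3 and 20.1 CPM in dividing, early, middle and late cells, and Btg2, which restrains division, at 182, 274, 67.7 and 46.0 CPM. Both were lower in middle than in early cells, a step at which nearly all progenitor-like cells dropped out of the mix. Sox2, the stem cell factor, stood at 297, 225, 229.9 and 203 CPM and Pax6 at 168, 115, 171 and 126 CPM, log2 differences of -0.55 and -0.41.

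Regulators of neuroblasts and their migration had 9 of 14 measured genes at least 2-fold higher and 0 lower in late cells. Erbb4, the neuregulin receptor, stood at 974, 1706, 5024 and 6454 CPM and Robo2, a receptor for the repellent Slit, at 427, 935, 2504 and 3222 CPM, log2 differences of 2.73 and 2.92. Meis2, a partner of homeobox factors in olfactory neurons, differed by 1.74 and Sox4, a relative of Sox11, by 0.89. Unlike Sox11, Sox4 was higher in late than in dividing cells. Gad2, the sister enzyme of Gad1, stood at 241, 303, 649.7 and 713 CPM, a difference of 1.57, and Slc32a1, which loads GABA into vesicles, differed by 1.34, while Abat, which breaks GABA down, differed by 0.61.

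Of 6 genes of olfactory bulb types, 3 were measured, and 2 of these were at least 2-fold higher and 0 lower. Synpr was at 2.32, Tshz1 at 1.54 and Etv1 at 0.95 on the log2 scale, and Tshz1 and Etv1 are also in the list of neuroblast regulators. Calb2, with too few UMIs for this count (20 in dividing and 3 in late cells), went the other way at -2.00 (-4.39 to -0.24). It was highest in early cells, at 25.9 CPM. Genes of cortical interneuron types had 4 of 7 measured genes at least 2-fold higher and 0 lower, with Adarb2 at 3.59, Satb1 at 1.01, Prox1 at 0.28 and Sox6 at -0.037. Only 7 of 14 genes of the cortical list reached 30 UMIs in lineage cells. Pvalb and Vip, which mark types of cortical interneurons, had 0 UMIs there, Sst 6 and Lhx6 18. Of the 4 higher genes, Adarb2 also led the neuroblast-like cluster, and Npy had 1 UMI in dividing and 51 in late cells. General genes of immature neurons had 6 of 15 measured genes at least 2-fold higher and 0 lower, with Tubb2b at 1.17, Ncam1 at 0.80 and Stmn1, which is also high in dividing cells, at -0.71. Stmn2 of this list was among the genes that set the late stage. Genes of striatal projection neurons had 0 of 2 measured genes at least 2-fold higher and 2 lower, and so did genes of the excitatory lineage. Each of these lists has 10 genes, of which 3 and 8 reached 30 UMIs in lineage cells. Most excitatory genes were not counted because their UMIs lay mainly in the early stage, with 106 of 112 for Slc17a6 and 96 of 97 for Neurod1. Eomes, the factor of excitatory progenitors, stood at 9.48, 38.8, 1.97 and 0.610 CPM, so it was highest in the mixed early stage.

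No other Dlx gene measured differed 2-fold between dividing and late cells. Of the 4 in the list, Dlx3 and Dlx4 had 0 UMIs in lineage cells, and 0 of the 2 others were at least 2-fold higher and 0 lower in late cells. Dlx6 stood at 47.4, 34.6, 40.5 and 62.8 CPM, with a log2 difference of 0.41 (0.14 to 0.68), so it was higher in late cells. Dlx1as, the antisense RNA of Dlx1, stood at 195, 223, 198 and 183 CPM, with -0.093 (-0.24 to 0.053).

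After TIA few of the related genes in neuroblast-like cells differed 2-fold from the naive library, and smaller differences are given beside those of all genes. The lists named above held 14 measured regulators of neuroblasts, 15 genes of immature neurons and 7 progenitor regulators at 24 h, of which 0 differed 2-fold either way, and the same count was 0 at 3 d, where the shares of all genes were 1.06% higher and 9.87% lower at 24 h and 0.486% and 2.15% at 3 d. On the log2 scale the median of the neuroblast regulators was 0.058 at 24 h and -0.31 at 3 d, against -0.042 and 0.023 for all genes. At 24 h, 6 of these 14 regulators had an interval above 0 and 1 below it, where 7.37% and 9.88% of all genes did. At 3 d it was 3 and 8, against 9.44% and 7.59% of all genes, which again are not matched for level. At 3 d Erbb4 had a log2 ratio of -0.20 (-0.23 to -0.17), Robo2 -0.36 (-0.40 to -0.32) and Etv1 -0.41 (-0.52 to -0.30), so these were lower than in the naive library. The genes of immature neurons had medians of 0.12 and 0.14, with intervals above 0 for 8 and 9 of 15 and below 0 for 0 and 0, beside the same shares of all genes. The 2-fold differences were in the lists of neuron types and had few UMIs. Nr2f2, a factor of some interneurons, had 171 naive and 13 24 h UMIs, a log2 ratio of -1.21 (-2.15 to -0.39), but 140 at 3 d, with 0.52 (0.19 to 0.85). Npy, a peptide of interneurons, had 6 naive and 50 3 d UMIs, a log2 ratio of 3.87 (2.64 to 5.38). Ebf1, a factor of striatal neurons, had 76 naive, 0 24 h and 11 3 d UMIs, log2 ratios of at most -2.15 against the floor and -1.98. Npy was seen in only 9 of the 1240 neuroblast-like cells of all libraries, Ebf1 in 18 and Nr2f2 in 120, so these ratios rest on few cells. Nr2f2 and Npy were named after their values were seen. Egfr, at 28.6, 14.5 and 30.0 CPM in neuroblast-like cells, came near the limit at 24 h with a log2 ratio of -0.98, and Pax6, which also acts in some olfactory neurons, was higher at 24 h with 0.56.

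For each of the genes the most alike patterns were sought among 14473 genes with at least 200 UMIs, by Pearson's r of log2(CPM + 1) over 21 sums of a class in a library. These sums come from 3 libraries and are not independent, so r is a description. Dlx1 was most like Dlx2 (0.993), Nsg2 (0.985) and Dlx5 (0.984), and Dlx2 most like Dlx1 (0.993), Nsg2 (0.988) and Miat (0.984). Dlx6os1 was most like Dcx (0.994), Myt1l (0.991) and Gad2 (0.985), and Dcx most like Dlx6os1 (0.994), Gad2 (0.985) and Myt1l (0.984). Dlx1 with Dlx2 and Dlx6os1 with Dcx thus named each other. Dlx5 was most like Rnf165 (0.992), Gm14204 (0.988) and Gad2 (0.987), Sp8 most like Gm14204 (0.992), Gad2 (0.989) and Scrt1 (0.987) and Sp9 most like Igfbpl1 (0.991), Dlx5 (0.986) and E130006D01Rik (0.986). Gad1 was most like Gabrb2 (0.986), Myt1l (0.980) and Gm14204 (0.979) and Sox11 most like Nrxn3 (0.975) and Nsg2 (0.974). The values of Sox11 were the lowest of the list, and its partners Nrxn3 and Nsg2 are among the genes that set the late stage.

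Several of the genes lie side by side in the genome, in positions of the GENCODE M21 annotation on build GRCm38. Dlx1 (ENSMUSG00000041911, chr2:71528113-71533981) and Dlx2 (ENSMUSG00000023391, chr2:71543408-71546754) are neighbours on opposite strands, and Dlx6os1 (ENSMUSG00000090063, chr6:6820189-6871592) and Dlx5 (ENSMUSG00000029755, chr6:6877805-6882085) are neighbours on the same strand. Sp9 (ENSMUSG00000068859, chr2:73271925-73284706) and Gad1 (ENSMUSG00000070880, chr2:70553072-70602014) lie on the chromosome of Dlx1 and Dlx2. Sp8 (ENSMUSG00000048562, chr12:118846329-118852576) and Sox11 (ENSMUSG00000063632, chr12:27334264-27342574) share another, and Dcx (ENSMUSG00000031285, chrX:143855842-143933311) is on the X chromosome. The neighbours Dlx1 and Dlx2 had differences between late and dividing cells of 0.028 and -0.27 and named each other as most alike, while the neighbours Dlx5 and Dlx6os1 differed by 0.28 and 1.66 on the log2 scale between late and dividing cells.

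Genes that overlap on the opposite strand limit how 3 of the genes can be read, because whether the counting kept strands apart is not stated. Dlx1 overlaps Dlx1as, Dlx6os1 overlaps Dlx6 and Gad1 overlaps Gad1os. In neuroblast-like cells of the naive, 24 h and 3 d libraries, Dlx1as stood at 209.9, 229.6 and 211 CPM, Dlx6 at 50.5, 38.4 and 50.1 CPM and Gad1os at 23.9, 22.9 and 24.3 CPM. Gad1os went up with Gad1 from dividing to late cells, at 6.20, 10.1, 22.2 and 29.9 CPM, whereas Dlx6 did not follow Dlx6os1 through the middle stage. UMIs from within introns may also be counted, which is not stated either.

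The promoters were searched for TAATTA, a core that homeodomain factors such as the Dlx proteins can bind. Windows of 300 bases around gene starts, from RefSeq on build GRCm38.p6, were given for 8 of the 9 genes, with 12 windows in all. TAATTA is its own reverse complement, so a search of 1 strand covers both. It occurred in 5 windows of 3 genes, Dlx6os1, Sp8 and Dcx, where 1738 of all 32851 windows (5.29%) held it. These were 3 of the 4 genes that were at least 2-fold higher in late cells, and the Gad1 window did not hold it, but no relation between the motif and the levels was tested. The genes with a match were also the only ones with more than 1 window. The Dcx windows overlap and hold the same match. TAATTA has only the bases A and T, and the windows with it had 35.3 to 53.0% G and C, against 43.0 to 69.3% in the windows of these genes without it. The part of base content was not tested. A match is a run of letters and not a known site. The windows with a match are shown from 5′ to 3′ on the strand of the gene, with TAATTA in capitals and 1 of the overlapping Dcx windows.
Dlx6os1 promoter chr6:6869484-6869783 (- strand): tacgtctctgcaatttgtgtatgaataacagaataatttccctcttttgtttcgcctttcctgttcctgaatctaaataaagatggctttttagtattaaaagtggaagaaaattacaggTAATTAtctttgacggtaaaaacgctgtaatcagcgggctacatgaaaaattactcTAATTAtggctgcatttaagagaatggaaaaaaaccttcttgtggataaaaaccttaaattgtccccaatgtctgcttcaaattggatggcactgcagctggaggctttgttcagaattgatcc
Dlx6os1 promoter chr6:6861634-6861933 (- strand): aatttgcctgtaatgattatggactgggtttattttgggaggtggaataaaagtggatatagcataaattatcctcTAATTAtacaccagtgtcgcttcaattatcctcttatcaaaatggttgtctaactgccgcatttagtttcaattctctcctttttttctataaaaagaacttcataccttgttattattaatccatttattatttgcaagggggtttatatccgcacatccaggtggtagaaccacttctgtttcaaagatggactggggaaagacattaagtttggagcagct
Sp8 promoter chr12:118847309-118847608 (+ strand): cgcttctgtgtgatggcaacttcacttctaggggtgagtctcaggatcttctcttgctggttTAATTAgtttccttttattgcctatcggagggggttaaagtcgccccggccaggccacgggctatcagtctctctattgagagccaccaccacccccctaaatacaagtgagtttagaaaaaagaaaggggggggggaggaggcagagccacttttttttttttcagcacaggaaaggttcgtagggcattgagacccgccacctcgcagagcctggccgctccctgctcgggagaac
Dcx promoter chrX:143933170-143933469 (- strand): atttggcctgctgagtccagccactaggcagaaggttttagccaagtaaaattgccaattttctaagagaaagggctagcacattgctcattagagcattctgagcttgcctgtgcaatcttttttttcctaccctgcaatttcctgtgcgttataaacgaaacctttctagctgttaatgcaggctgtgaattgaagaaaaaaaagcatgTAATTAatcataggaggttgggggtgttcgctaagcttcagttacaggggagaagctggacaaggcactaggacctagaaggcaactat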

How the data were processed

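The authors deposited raw UMI counts per gene and cell, 3 libraries of 3 pooled mice each, on the mouse genome mm10. The file headers name Cell Ranger 7.1.0 and the processing notes name version 3.1.0. Cells with at least 500 genes and at most 7% mitochondrial UMIs were kept. Seurat 5.3.0 in R 4.3.3 clustered them after log-normalization with 2000 variable features less the 9 genes, regression on UMI number and mitochondrial share, 20 components and resolution 0.5. Clusters were named from marker lists (at least 3 markers at least 2-fold above the other cells). Scrublet (scanpy 1.11.5) marked likely doublets. Sums, CPM, exact Poisson, Clopper-Pearson and conditional binomial intervals were computed in Python 3.11.15 with scipy 1.17.1. A gene with 0 UMIs was set against a floor of 3 UMIs, and no ratio was given where both sums held 3 or fewer. The members and lists were chosen with earlier results of these data known. The genes named are the 9 members, up to 4 genes of each related list with the most lineage UMIs, and up to 3 of the most alike genes of each member. Nr2f2, Npy and the scarce cortical genes Pvalb, Vip, Sst and Lhx6 were named after their values were seen. Alternatives tried were the cell filter read literally, removal of doublets, clustering with the members, at resolutions 0.2 and 1 or with nothing regressed out, median-ratio scaling, other UMI, fold and division limits, and means over cells. Alternatives with at least 5000 UMIs per cell with named classes only or with dividing cells only, and those without the cells highest in neuroblast markers in classes other than microglia and astrocytes, were chosen after seeing the data.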

Additional observations from a re-analysis of the deposited data

How the results depend on the processing

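Of 383 values under other settings, 349 stayed within the counting interval of the reported value (for a count, within 1.5 times), 34 moved and 0 values past 2-fold changed sign. Among smaller log2 values 17 changed sign, of which those of Dlx6os1 at 24 h and Dlx5 at 3 d in neuroblast-like cells, Dlx2 at 24 h in dividing cells and Dlx2 between stages also moved. No result could be recomputed without a replicate, since each group had 1 library. With doublets left out, the 24 h log2 ratios in neuroblast-like cells were -0.043 for Dlx6os1, 0.12 for Dcx and -0.11 for Sox11, and the naive level in microglia was 0.625% of that in neuroblast-like cells. The progenitor-like share of naive cells was 4.21% with the genes kept among the variable features, 4.21% at resolution 1 and 6.15% without regression. At resolution 0.2 it was 6.67%, 4.49% and 5.21% in the naive, 24 h and 3 d libraries. Without regression, where a large astrocyte cluster lost its name, the level in astrocytes was 0.894% (naive) and 0.776% (3 d) of that in neuroblast-like cells. As means of cells scaled to 10000 UMIs, log2 ratios were 0.092 for Dcx at 24 h, and 0.21 for Dlx1, 0.10 for Dlx5 and 0.18 for Sox11 at 3 d. Between neuroblast-like and progenitor-like clusters in place of late and dividing cells, log2 differences were 0.15 for Dlx1, 0.015 for Dlx2, 0.56 for Dlx5, 1.58 for Dlx6os1, 1.69 for Sp8 and 1.00 for Sp9. With cells of at least 5000 UMIs, chosen after seeing the data, the neuroblast-like share of such naive cells was 16.3%, the 3 d log2 ratio of Sox11 was 0.052, and late differed from dividing cells by 0.15 for Dlx1, -0.13 for Dlx2 and 0.18 for Sox11. In named classes only, also chosen after seeing the data, the log2 ratios outside the lineage were -1.82 at 24 h and -1.05 at 3 d. In dividing cells only, chosen likewise in place of all progenitor-like cells, log2 ratios were -0.21 for Dlx1, 0.20 for Dlx2 and -0.59 for Dlx6os1 at 24 h, and -0.48 for Dcx and -0.079 for Sox11 at 3 d. The cause of these moves was not tested. Counts of 2-fold differences in neuroblast-like cells were 0 under each setting run, and the count from dividing to late cells was 4 or 5, with Sp9 added between clusters. The intervals leave out differences between mice, between dissections and between runs, which 1 library per group cannot show, and the 24 h library, with the fewest cells, sets the widest intervals.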

Other observations

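Some kept cells fell in clusters that got no name. A cluster led by Ttr, Ccn3 and Prg4 (96, 23 and 99 cells in the naive, 24 h and 3 d libraries) had Sox11 at 454, 110.3 and 124 CPM and 37, 1 and 12 UMIs of Dcx, both highest in the naive library. A cluster led by the neutrophil genes S100a8 and S100a9 (71, 27 and 136 cells) had Sox11 at 13.3, 0 and 3.51 CPM. A cluster of low depth (290, 23 and 145 cells, median depths of 2034.5, 2566 and 2041 UMIs) had Sox11 at 50.5, 0 and 15.0 CPM.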
